A study of Rattus norvegicus with 31 samples.

Results

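Nqo1, Hmox1, Gpx1 and Gpx3 encode enzymes that protect cells against oxidants, and their transcripts were followed in the gastrocnemius, a mixed and mostly fast calf muscle, of cold-exposed and room temperature rats with and without Ucp1. The 4 genes were chosen by name, with earlier results of these same data known, and they make up 4 of the 11289 genes listed. All 4 passed the filter on low counts that left 10082 genes. The values that could have chosen them include every cold and genotype difference reported here, so their levels and changes are given as a description, with no p. In each of the 4 pairwise comparisons of groups, all 4 genes had a higher fitted mean in the cold than at room temperature and in knockouts than in controls. The size of these differences varied between the genes and between the groups.

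Each library came from 1 female Sprague Dawley rat on chow, 7 months old per the labels. The groups were Ucp1 knockouts kept at 4 °C for 14 days (n = 8), controls at 4 °C for 14 days (n = 8), Ucp1 knockouts at room temperature (n = 7) and controls at room temperature (n = 8). A time of 14 days is given for the room temperature rats as well. Ucp1 encodes the uncoupling protein of brown fat mitochondria. The sources used here do not say which allele the knockouts carry or whether it is limited to a tissue. Ucp1 itself was not analysed here, and the genotypes are therefore those of the labels. The labels name no batch, litter or cage, and a batch that followed the groups cannot be told apart from them.

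As background, these enzymes sit at different points of the antioxidant defence. NQO1 reduces quinones to hydroquinones without releasing a reactive semiquinone, and heme oxygenase 1, the product of Hmox1, breaks heme down to biliverdin, carbon monoxide and iron. Both genes are classic targets of NRF2, a transcription factor that KEAP1 holds at low levels until oxidants or electrophiles modify KEAP1. NRF2 acts through the antioxidant response element together with small MAF proteins, while BACH1 represses Hmox1 when heme is scarce. GPX1, in the cytosol and mitochondria, and GPX3, a secreted enzyme, are selenoproteins that reduce peroxides with glutathione. Muscle oxidants come in part from mitochondria and from NADPH oxidases, and slow, oxidative fibres differ from fast fibres in their antioxidant enzymes.

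Promoter windows are shown to let the genes be compared at the place where such factors are usually sought. They come from RefSeq, build GRCr8, and run from 250 bases before to 50 bases after the annotated start. The table held 3 of the 4 genes, and Hmox1 was not among them. The windows are chr19:52220218-52220517 on the minus strand for Nqo1, chr8:117905212-117905511 on the plus strand for Gpx1 and chr10:39529085-39529384 on the plus strand for Gpx3. Each is written 5′ to 3′ as in that table, and capitals mark every match to the motifs named after the sequences.
Nqo1: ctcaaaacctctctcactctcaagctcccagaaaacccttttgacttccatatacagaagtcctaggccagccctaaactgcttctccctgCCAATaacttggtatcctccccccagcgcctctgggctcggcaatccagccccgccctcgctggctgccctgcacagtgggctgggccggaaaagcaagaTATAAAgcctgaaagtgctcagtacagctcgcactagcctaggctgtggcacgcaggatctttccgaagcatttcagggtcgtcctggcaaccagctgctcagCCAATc
Gpx1: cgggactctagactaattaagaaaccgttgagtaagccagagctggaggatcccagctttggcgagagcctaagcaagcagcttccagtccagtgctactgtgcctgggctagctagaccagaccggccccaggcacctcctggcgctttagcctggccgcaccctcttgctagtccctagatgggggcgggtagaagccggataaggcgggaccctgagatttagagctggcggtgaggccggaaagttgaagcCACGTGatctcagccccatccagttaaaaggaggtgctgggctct
Gpx3: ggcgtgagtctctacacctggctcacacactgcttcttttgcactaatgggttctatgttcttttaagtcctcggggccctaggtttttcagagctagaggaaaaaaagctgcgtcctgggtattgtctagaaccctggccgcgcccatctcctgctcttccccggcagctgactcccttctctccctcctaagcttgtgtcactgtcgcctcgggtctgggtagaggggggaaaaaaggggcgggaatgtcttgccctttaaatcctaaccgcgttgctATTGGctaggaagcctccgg
Both strands were searched for 5 motifs. The antioxidant response element core TGACNNNGC was found in none of the 3 windows, against 12.1% of the 33469 promoters in the table. The AP-1 site TGANTCA, which overlaps that core in some promoters, was also found in none of them, against 7.33% of all promoters. The E-box CACGTG occurred in the Gpx1 window at position 6 of the transcript, and in 6.42% of all promoters. The Nqo1 window held the TATA box TATAAA at position -59 from the start, which 14.2% of promoters hold, and the CCAAT box CCAAT at positions -159 and 45. The Gpx3 window held CCAAT on the other strand at position 31, and 37.5% of promoters held that box. GC content was 56.3% for Nqo1, 58.7% for Gpx1 and 54.7% for Gpx3, against a median of 51.7% over all promoters. A match of letters is not a bound site, and its absence refers to these 300 bases alone.

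Libraries were made with a QuantSeq kit, which reads a tag at the 3′ end of each polyadenylated transcript. They held 6.56 to 11.9 M counts, with group means of 10.02 ± 1.54 (knockout, cold), 9.07 ± 0.933 (control, cold), 9.26 ± 1.29 (knockout, room temperature) and 8.83 ± 1.13 M (control, room temperature; SD). Levels are CPM, the counts scaled to a common library size after TMM scaling, which corrects for differences in library makeup. They are compared for 1 gene across rats and not between genes, since the capture of a 3′ tag can differ between genes. Depth was ample for Gpx1, with 1667 to 9006 counts per library, and lower for Gpx3 (275 to 1458), Nqo1 (128 to 745) and Hmox1 (61 to 991). Muscle markers such as Acta1, Ckm and Myh1 were present in every library, and their list summed to 85661 to 146422 CPM. Room temperature controls 1 and 2 stood apart from the other libraries on the second principal component, so the changes of the 4 genes that use the room temperature controls are also given without them. RNA came from whole muscle, so a change in the share of a cell type and a change in RNA per cell cannot be told apart.

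Nqo1 was highest in knockouts in the cold. In cold knockouts the level ran from 42.1 to 74.1 CPM with a median of 47.5, and in cold controls from 22.01 to 46.1 CPM with a median of 27.4. In room temperature knockouts it ran from 22.6 to 70.1 CPM with a median of 26.4, and in room temperature controls from 13.4 to 28.1 CPM with a median of 19.1. Cold knockouts and cold controls overlapped in a narrow band, and 5 of the 8 cold knockouts exceeded every cold control. The means were 52.5 ± 11.9 CPM in cold knockouts, 31.6 ± 9.25 in cold controls, 32.2 ± 16.9 in room temperature knockouts and 19.4 ± 4.51 in room temperature controls (SD). Knockout rat 10 at room temperature, at 70.1 CPM, held that group's mean and SD up, since the next highest rat of the group was at 29.1 CPM. Cold controls and room temperature knockouts, neighbours in the order of levels, had means less than 1 SD apart.

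The fitted log2 change of Nqo1 (log2 fold change ± SE of the fit) with cold was 0.70 ± 0.22 in knockouts and 0.71 ± 0.21 in controls. The change with knockout was 0.73 ± 0.21 in the cold and 0.74 ± 0.22 at room temperature. These 4 values of Nqo1 lay close together. The difference of the 2 cold changes, knockouts minus controls, was -0.00 ± 0.29. Leaving out knockout rat 10 lowered the knockout change at room temperature to 0.43 and raised the cold change in knockouts to 0.99. Without room temperature controls 1 and 2 the cold change in controls was 0.62, the knockout change at room temperature 0.66 and the difference of the cold changes 0.09.

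Hmox1 stood out in 1 of the 4 groups. Its level ran from 21.2 to 86.0 CPM with a median of 29.8 in cold knockouts and from 11.4 to 22.1 CPM with a median of 18.6 in cold controls. In room temperature knockouts it ran from 11.3 to 24.4 CPM with a median of 16.02, and in room temperature controls from 7.69 to 17.5 CPM with a median of 14.0. Of the 8 cold knockouts, 7 exceeded every cold control and 6 exceeded every room temperature knockout. The ranges of the 3 other groups overlapped with each other. Group means were 38.5 ± 21.5 CPM in cold knockouts, 17.5 ± 3.83 in cold controls, 17.3 ± 4.62 in room temperature knockouts and 13.4 ± 3.30 in room temperature controls (SD). Cold knockout 31 was the highest rat at 86.0 CPM, followed in its group by a rat at 50.3 CPM.

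The log2 change of Hmox1 with cold was 1.16 ± 0.24 in knockouts and 0.38 ± 0.23 in controls. With knockout it was 1.14 ± 0.23 in the cold and 0.36 ± 0.24 at room temperature. The cold change in knockouts exceeded that in controls by 0.78 ± 0.34, the highest such difference of the 4 genes. Without cold knockout 31 that difference was 0.47, the cold change in knockouts 0.85 and the knockout change in the cold 0.84. Without room temperature controls 1 and 2 the cold change in controls was 0.24, the knockout change at room temperature 0.22 and the difference of the cold changes 0.92. In RefSeq GRCr8 the span of Hmox1 overlaps a long non-coding RNA gene, LOC134483111, and the strand setting of the counting is not given in the sources used here, so reads of the 2 genes may be mixed.

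**Figure D1:**
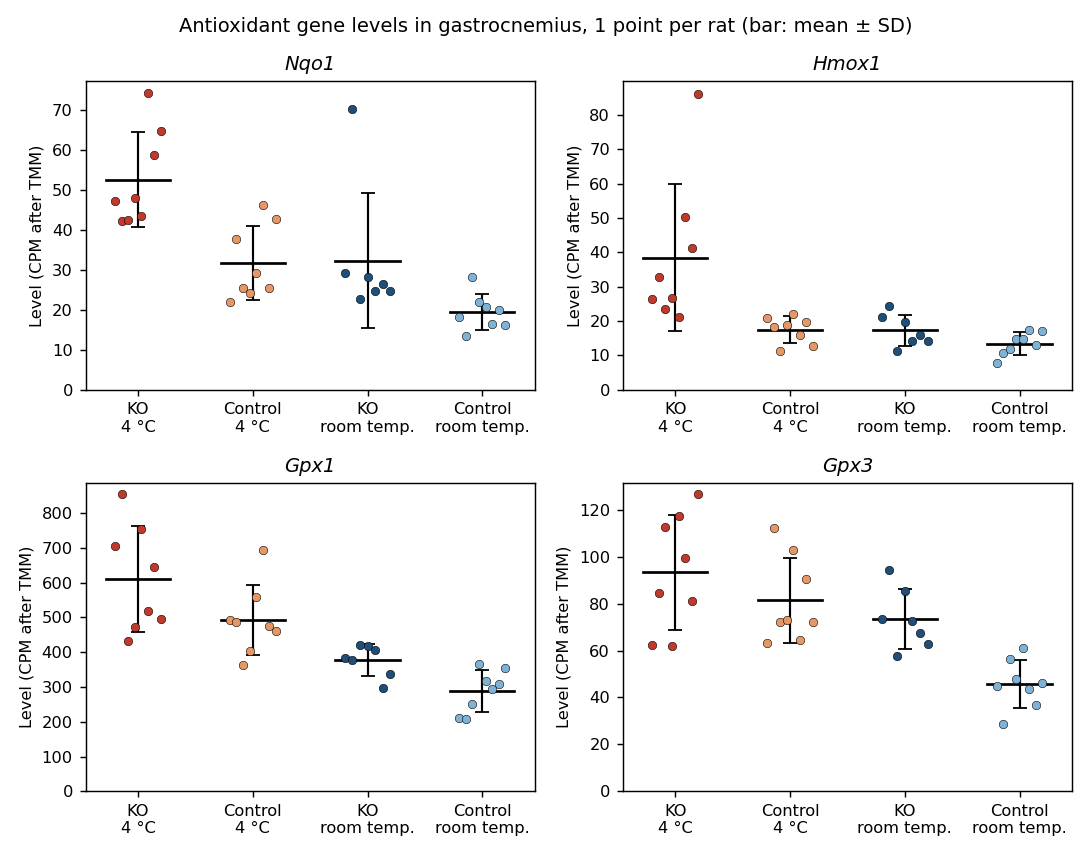
Levels of Nqo1, Hmox1, Gpx1 and Gpx3 (CPM after TMM, linear axes from 0) in each of the 31 rats, with the group mean as a horizontal line and the SD as a vertical bar. Knockouts at 4 °C have the highest mean of every gene, and single rats rise far above their group for Nqo1 (70.1 CPM, knockout at room temperature) and Hmox1 (86.0 CPM, knockout at 4 °C).

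Gpx1 followed temperature more than genotype. The level ran from 433 to 855 CPM with a median of 582 in cold knockouts and from 364 to 693 CPM with a median of 482 in cold controls. In room temperature knockouts it ran from 297 to 419.6 CPM with a median of 384, and in room temperature controls from 208 to 367 CPM with a median of 300.3. The 8 cold knockouts all lay above the 7 room temperature knockouts. In controls, 7 of 8 cold rats lay above every room temperature rat, while knockouts and controls overlapped at both temperatures. Group means were 609.8 ± 152 CPM in cold knockouts, 492 ± 101 in cold controls, 377 ± 45.5 in room temperature knockouts and 289 ± 60.3 in room temperature controls (SD).

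The log2 change of Gpx1 with cold was 0.69 ± 0.15 in knockouts and 0.77 ± 0.15 in controls, which differed by -0.08 ± 0.21. With knockout it was 0.31 ± 0.15 in the cold and 0.39 ± 0.15 at room temperature. Room temperature controls 1 and 2 had 211 and 208 CPM of Gpx1, the lowest values of their group. Without them the cold change in controls was 0.65, the knockout change at room temperature 0.26 and the difference of the cold changes 0.06.

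Gpx3 was lowest in room temperature controls, and the other groups lay closer together. In cold knockouts the level ran from 62.0 to 127 CPM with a median of 92.0, and in cold controls from 63.2 to 112 CPM with a median of 72.7. In room temperature knockouts it ran from 57.7 to 94.1 CPM with a median of 72.8, and in room temperature controls from 28.7 to 61.2 CPM with a median of 45.5. All 8 cold controls lay above all 8 room temperature controls, and 6 of 7 room temperature knockouts lay above every room temperature control. Cold knockouts and room temperature knockouts overlapped, with 4 of the 8 cold rats above the range of the other group. Means were 93.3 ± 24.7 CPM in cold knockouts, 81.3 ± 18.3 in cold controls, 73.4 ± 12.7 in room temperature knockouts and 45.7 ± 10.3 in room temperature controls (SD). The means of cold knockouts and cold controls, and those of cold controls and room temperature knockouts, were less than 1 SD apart.

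The log2 change of Gpx3 with cold was 0.35 ± 0.17 in knockouts and 0.83 ± 0.16 in controls, a difference of -0.49 ± 0.23. With knockout it was 0.20 ± 0.16 in the cold and 0.68 ± 0.17 at room temperature. The sign of this difference was opposite to that of Hmox1: the cold change was lower in knockouts for Gpx3 and higher in knockouts for Hmox1. Without room temperature controls 1 and 2 the cold change in controls was 0.74, the knockout change at room temperature 0.59 and the difference of the cold changes -0.39. Leaving out cold knockout 31, the highest rat for Gpx3, brought the knockout change in the cold to 0.11.

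**Figure D2:**
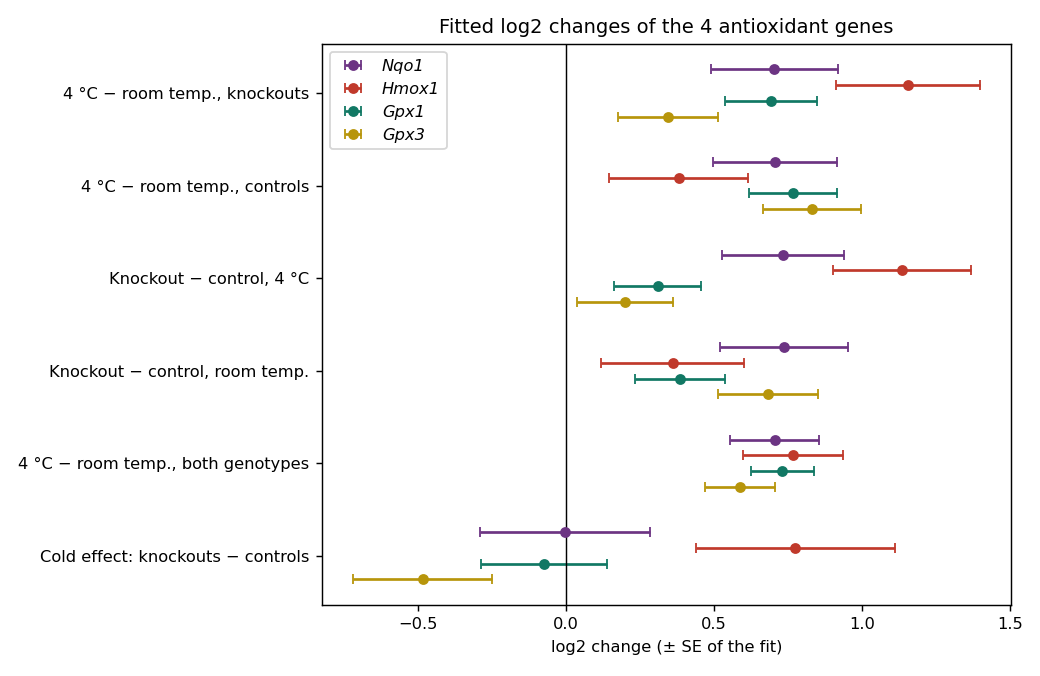
Fitted log2 changes (points) with the SE of the fit (bars) for the 4 genes in each comparison, positive where the group named first is higher. The points of Nqo1 and Gpx1 for the difference of the cold effects lie near 0, that of Hmox1 at 0.78 and that of Gpx3 at -0.49.

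Averaged over genotypes, the log2 change with cold was 0.71 ± 0.15 for Nqo1, 0.77 ± 0.17 for Hmox1, 0.73 ± 0.11 for Gpx1 and 0.59 ± 0.12 for Gpx3, against a median of -0.02 over all genes. Without room temperature controls 1 and 2 these changes were 0.66 for Nqo1, 0.70 for Hmox1, 0.67 for Gpx1 and 0.55 for Gpx3. The 2 genotypes' cold groups, and the 2 genotypes' room temperature groups, enter more than 1 of these comparisons, so the comparisons are not independent of each other. A gene is called here where its p from edgeR's quasi-likelihood test, adjusted by Benjamini-Hochberg over the 10082 genes, is under 0.05. Averaged over genotypes 4 of 4 genes were called, against 5.65% of all genes. In knockouts 2 of 4, Hmox1 and Gpx1, were called with cold, against 1.38% of all genes, and in controls 2 of 4, Gpx1 and Gpx3, against 0.853%. Since the genes were chosen with these comparisons known, nothing is read from these shares. Fitting the 2 knockout groups alone, in place of all 31 libraries, ended both calls in knockouts, while the log2 changes stayed at 1.15 for Hmox1 and 0.70 for Gpx1.

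None of the 4 genes was called for knockout in the cold (0.00992% of all genes, which is 1 gene, Ntf4), for knockout at room temperature (0%) or for the difference of the cold effects (0%) with edgeR. At an unadjusted p under 0.05 these comparisons held 633, 712 and 737 of the 10082 genes, and DESeq2 called 8, 1 and 1 genes. Hmox1 was among the 8 that DESeq2 called for knockout in the cold. Groups that did not overlap were found for 1 of 4 genes with cold in knockouts (Gpx1), against 0.546% of all genes, and for 1 of 4 with cold in controls (Gpx3), against 0.436%. For knockout in the cold and at room temperature no gene of the 4 had groups without overlap, against 0.00992% and 0.0595% of all genes.

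The 4 genes varied by different amounts between rats of 1 group. The pooled SD within groups on the log2 scale was 0.40 for Nqo1, 0.47 for Hmox1, 0.29 for Gpx1 and 0.33 for Gpx3. Within a group some rats were high in several of the genes. Room temperature knockout 10 ranked highest of its group for Nqo1, Hmox1 and Gpx3 and had rank 5 of 7 for Gpx1. Cold knockout 31 ranked highest for Hmox1 and Gpx3 and had rank 2 for Nqo1 and rank 6 of 8 for Gpx1. Room temperature control 2 ranked lowest for Nqo1, Gpx1 and Gpx3.

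Relations within groups were measured on log2 levels after the group means were subtracted, over 31 rats, and tested by permuting values within groups. The family held 38 relations, 6 between the genes and 32 with marker lists of cell types, and p-values were adjusted by Benjamini-Hochberg over it. The first principal component, with 35.3% of the variance, also varied within groups and was not removed. In cold knockouts it ran from -61.55 in rat 28 to 39.29 in rat 31. The r of other genes with these lists is not given here, so the relations are not shown to be particular to the 4 genes. No pair of the 4 genes passed. The highest was Nqo1 with Gpx3 at r = 0.40 (rho = 0.41, permutation p = 0.0207, adjusted p = 0.113). For this pair r was 0.35 without the 2 rats farthest from the median of Gpx3. Hmox1 with Gpx3 gave r = 0.40 and Nqo1 with Hmox1 r = 0.36, while Gpx1 gave r of 0.08 to 0.15 with the other genes.

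Gpx1 varied with the slow fibre list, the 9 genes of slow-twitch contractile and calcium pump proteins such as Myh7, the slow myosin heavy chain. The relation had r = 0.69 and rho = 0.68 (permutation p = 2e-05, adjusted p = 0.00076 for r), and r was 0.58 without the 2 rats farthest from the median of the list, which are room temperature controls 1 and 2. The summed slow fibre level ran from 13274 to 30093 CPM in cold knockouts, from 18274 to 24752 in cold controls, from 8565 to 14384 in room temperature knockouts and from 6131 to 16562 in room temperature controls. It thus separated the temperatures in both genotypes with little or no overlap, as Gpx1 did. With cold averaged over genotypes 8 of its 9 genes were called higher, against 5.65% of all genes called in either direction. The part of slow fibre content in the cold change of Gpx1 was not tested.

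Hmox1 varied with the macrophage list (10 of 11 genes measured, among them Cd163, Mrc1 and Csf1r). The relation had r = 0.47 and rho = 0.54 (permutation p = 0.001, adjusted p = 0.019 for r). Without the 2 farthest rats, which are room temperature controls 1 and 2, r was 0.43. The summed macrophage level ran from 331 to 475 CPM in cold knockouts, from 255 to 431 in cold controls, from 191 to 404 in room temperature knockouts and from 60.5 to 305 in room temperature controls. Hmox1 also varied with the 2 measured neutrophil genes, S100a8 and S100a9, at r = 0.59 (rho = 0.44, permutation p = 0.00344, adjusted p = 0.0436), but r was 0.32 without the 2 farthest rats and the rank relation did not pass (adjusted p = 0.194 for rho). Those neutrophil genes summed to 2.84 to 62.7 CPM in cold knockouts, 2.51 to 16.99 in cold controls, 1.55 to 10.9 in room temperature knockouts and 0.944 to 1.85 in room temperature controls. The highest sum of cold knockouts was in rat 31, which also had the highest Hmox1, and that of room temperature knockouts in rat 10, which had the highest Nqo1. Of the macrophage list 2 of the 10 measured genes, C1qb and Cd163, were called higher with cold averaged over genotypes. Of the 7 symbols of the neutrophil list only S100a8 and S100a9 were measured, and both were called higher. Of all genes 5.65% were called in this comparison, in either direction. The part of macrophages and neutrophils in the levels of Hmox1 was not tested.

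**Figure D3:**
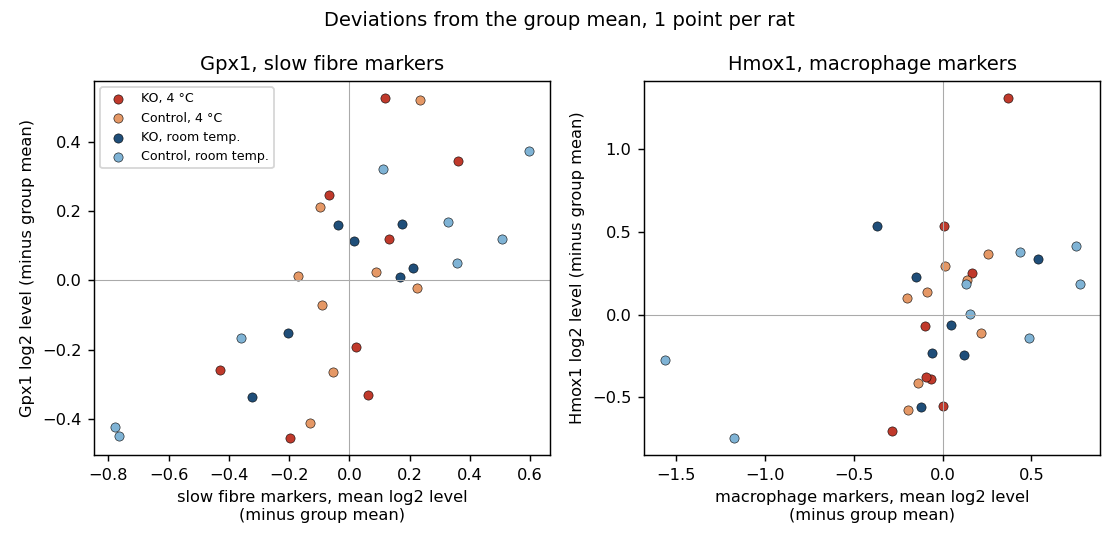
Each point is 1 of the 31 rats, coloured by group, with the deviation of its log2 level of Gpx1 (left) or Hmox1 (right) from the group mean on the vertical axis and that of the mean log2 level of the slow fibre or macrophage list on the horizontal axis. Gpx1 rises with the slow fibre list (r = 0.69) and Hmox1 with the macrophage list (r = 0.47).

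None of the other lists passed with any of the 4 genes. Among them, the white adipocyte list summed to 2206 to 4505 CPM in cold knockouts, 1429 to 3677 in cold controls, 1202 to 2209 in room temperature knockouts and 720 to 3046 in room temperature controls. Of the erythrocyte list 4 of 5 tested genes were called higher with cold averaged over genotypes, against 5.65% of all genes called in either direction. That list summed to 638 to 3078, 723 to 1738, 349 to 1540 and 485 to 921 CPM in the same order of groups. The endothelial list ran from 227 to 465 CPM and the fibroblast list from 251 to 1119 CPM over all rats. Nqo1 gave r = -0.49 with the erythrocyte list (rho = -0.33, permutation p = 0.012, adjusted p = 0.113), which was -0.41 without the 2 farthest rats and -0.69 without room temperature controls 1 and 2. With the fibroblast list Nqo1 gave r = -0.27, which was -0.66 without the 2 farthest rats, here room temperature controls 1 and 2. With the neutrophil genes Nqo1 gave r = 0.45 (rho = 0.335, permutation p = 0.0148, adjusted p = 0.113) and did not pass. Without the 2 rats farthest from the median of the neutrophil genes, that r was 0.49. Hmox1 gave r = -0.48 with the skeletal muscle list (rho = -0.54, adjusted permutation p = 0.113 for r and 0.0654 for rho), and r was -0.40 without the 2 farthest rats.

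The genes most like each of the 4 within groups were named by the highest Pearson r over 31 rats among 6692 genes with at least 5 CPM on average. For Nqo1 they were Eif4ebp1, the translation repressor 4E-BP1 (r = 0.74), Hgs, an endosomal sorting protein (0.73), and Psmd4, a proteasome subunit (0.72). For Hmox1 they were Sertad1 (0.71), Mafg, one of the small MAF partners of NRF2 (0.68), and Lyve1, a hyaluronan receptor of lymphatic vessels and some macrophages (0.68). For Gpx1 they were Tppp3 (0.75), Cryab, a small heat shock protein (0.75), and Dnajb2, a J-domain cochaperone (0.74). For Gpx3 they were Nudt16 (0.81), Lyar (0.73) and Tmem87b (0.72). Hgs and Lyve1 fell to r = 0.49 each without the 2 farthest rats. These values describe likeness in these rats and carry no test.

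To place the 4 genes among the rest of the antioxidant system, 6 lists of related genes held 179 symbols, of which 141 were tested beyond the 4 genes. The lists were chosen with earlier results of these data known, so nothing is read from the shares of their genes that passed. With cold averaged over genotypes 18 of the 141 passed, 15 higher and 3 lower, which is 12.8% against 5.65% of all genes. The median log2 change of all 141 tested list genes was 0.11, against -0.02 over all genes. In knockouts 3 of 141 passed with cold, all higher (2.13% against 1.38%), and in controls 1 passed, also higher (0.709% against 0.853%). For knockout in the cold, knockout at room temperature and the difference of the cold effects, 0 of 141 passed with edgeR and 0 with DESeq2, with 5, 8 and 2 at an unadjusted p under 0.05.

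The quinone, NADPH and oxidant source list holds Nqo2, the closest relative of Nqo1, and enzymes that make or use NADPH. It had the most calls with cold averaged over genotypes, 6 higher and 1 lower of 30 (23.3%, against 5.65% of all genes). Nox4, an NADPH oxidase that makes hydrogen peroxide, rose by 0.63 ± 0.14 with cold averaged over genotypes (adjusted p = 0.00596). Ncf1, a cytosolic subunit of the phagocyte NADPH oxidase, rose by 0.56 ± 0.14 (adjusted p = 0.0145), and Xdh, xanthine dehydrogenase, by 0.42 ± 0.10 (adjusted p = 0.00991). Aifm2, the ubiquinone reductase FSP1, rose by 0.65 ± 0.17 (adjusted p = 0.0197). The mitochondrial NADPH producers Idh2 (0.53 ± 0.11, adjusted p = 0.0045) and Nnt (0.35 ± 0.10, adjusted p = 0.0392) rose, and Me1, the cytosolic malic enzyme, fell by 0.30 on the log2 scale (SE 0.09, adjusted p = 0.0375). Nqo2 had a log2 change of -0.00 ± 0.18 and did not pass. Of the 31 fits that each left out 1 rat, 16 ended the call of Nnt and 11 that of Me1.

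Of 32 tested NRF2 regulators and targets, 2 were higher and 1 lower (9.38%, against 5.65% of all genes). Ephx1, microsomal epoxide hydrolase, rose by 0.58 ± 0.12 (adjusted p = 0.00222) and Tkt, transketolase of the pentose phosphate pathway, by 0.47 ± 0.12 (adjusted p = 0.0142). Me1, which also stands in the previous list, was the 1 that fell. Nfe2l2, the gene of NRF2, changed by 0.01 ± 0.14 and Keap1 by -0.14 ± 0.10, and neither passed. Among the targets most often read beside Nqo1 and Hmox1, Gclm had 0.35 ± 0.13 (adjusted p = 0.106), Gclc 0.28 ± 0.30 and Txnrd1 0.03 ± 0.11, and none of these passed. Srxn1 and Slc7a11 were not analysed here.

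The heme and iron list, in which Hmox1 has its substrate and products, had 2 of 28 genes higher and 1 lower. That is 10.7%, against 5.65% of all genes. Cd163, the macrophage receptor for hemoglobin and haptoglobin, rose by 1.002 ± 0.146 averaged over genotypes (adjusted p = 4.96e-05), by 1.02 ± 0.21 in knockouts (adjusted p = 0.0089) and by 0.99 ± 0.20 in controls (adjusted p = 0.0139). It averaged 35.6 ± 9.69 CPM in cold knockouts, 25.8 ± 6.82 in cold controls, 17.6 ± 3.44 in room temperature knockouts and 13.03 ± 4.16 in room temperature controls (SD), and it is also 1 of the macrophage markers. The call in controls ended without room temperature controls 1 and 2 (0.79, adjusted p = 0.0568). Mb, myoglobin, rose by 0.54 ± 0.13 (adjusted p = 0.0122), and Pcbp2, an iron chaperone and RNA-binding protein, fell by 0.46 on the log2 scale (SE 0.13, adjusted p = 0.0318). Hmox2, the constitutive heme oxygenase, had 0.28 ± 0.11 (adjusted p = 0.131), and Blvra and Blvrb, the biliverdin reductases, did not pass.

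In the glutathione list 4 of 26 genes were higher and none lower (15.4%, against 5.65% of all genes). Mgst1, a microsomal glutathione transferase, rose by 0.85 ± 0.20 (adjusted p = 0.0088), Gstz1 by 0.54 ± 0.11 (adjusted p = 0.00334), Gstm2 by 0.43 ± 0.10 (adjusted p = 0.00831) and Gstk1 by 0.32 ± 0.09 (adjusted p = 0.0295). The call of Gstk1 ended in 4 of the 31 fits that left out 1 rat. Gstm2 is the deposited name, while the Entrez ID given with it has the symbol Gstm7 in RefSeq GRCr8, so the identity of this gene is uncertain. Gstm2 has near-identical relatives, so its reads may be shared with them. In knockouts Gstz1 (0.69 ± 0.16, adjusted p = 0.0231) and Tkt (0.68 ± 0.17, adjusted p = 0.0371) also passed with cold, though both lost that call when the 2 knockout groups were fitted alone, and in 4 (Gstz1) and 11 (Tkt) of the fits that left out 1 rat. Gsr, glutathione reductase, which regenerates the substrate of Gpx1 and Gpx3, had -0.03 ± 0.26 and did not pass.

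Among the genes closest to Gpx1 and Gpx3 by function, 1 of 23 tested genes of peroxide and superoxide removal passed (4.35%, against 5.65% of all genes). It was Txnrd2, the mitochondrial thioredoxin reductase, which fell by 0.44 on the log2 scale (SE 0.13, adjusted p = 0.0365). Gpx4, the glutathione peroxidase for membrane lipids, had 0.11 ± 0.12, Cat, catalase, 0.23 ± 0.11, Sod1 -0.23 ± 0.11 and Sod2 0.18 ± 0.10, and none passed. Of 21 selenoprotein and selenium handling genes 2 passed (9.52%). Msrb1, a methionine sulfoxide reductase, rose by 0.64 ± 0.15 (adjusted p = 0.00917) and Txnrd2 was the other. Msrb1 averaged 163 ± 25.3 CPM in cold knockouts, 142 ± 47.5 in cold controls, 92.8 ± 15.2 in room temperature knockouts and 103 ± 45.0 in room temperature controls (SD). The calls of Txnrd2 (-0.27, adjusted p = 0.101), Me1 (-0.27, adjusted p = 0.0681) and Pcbp2 (-0.27, adjusted p = 0.0961), which are the 3 genes that fell, ended without room temperature controls 1 and 2. Leaving out 1 rat ended the call of Txnrd2 in 10 and that of Pcbp2 in 6 of 31 fits.

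**Figure D4:**
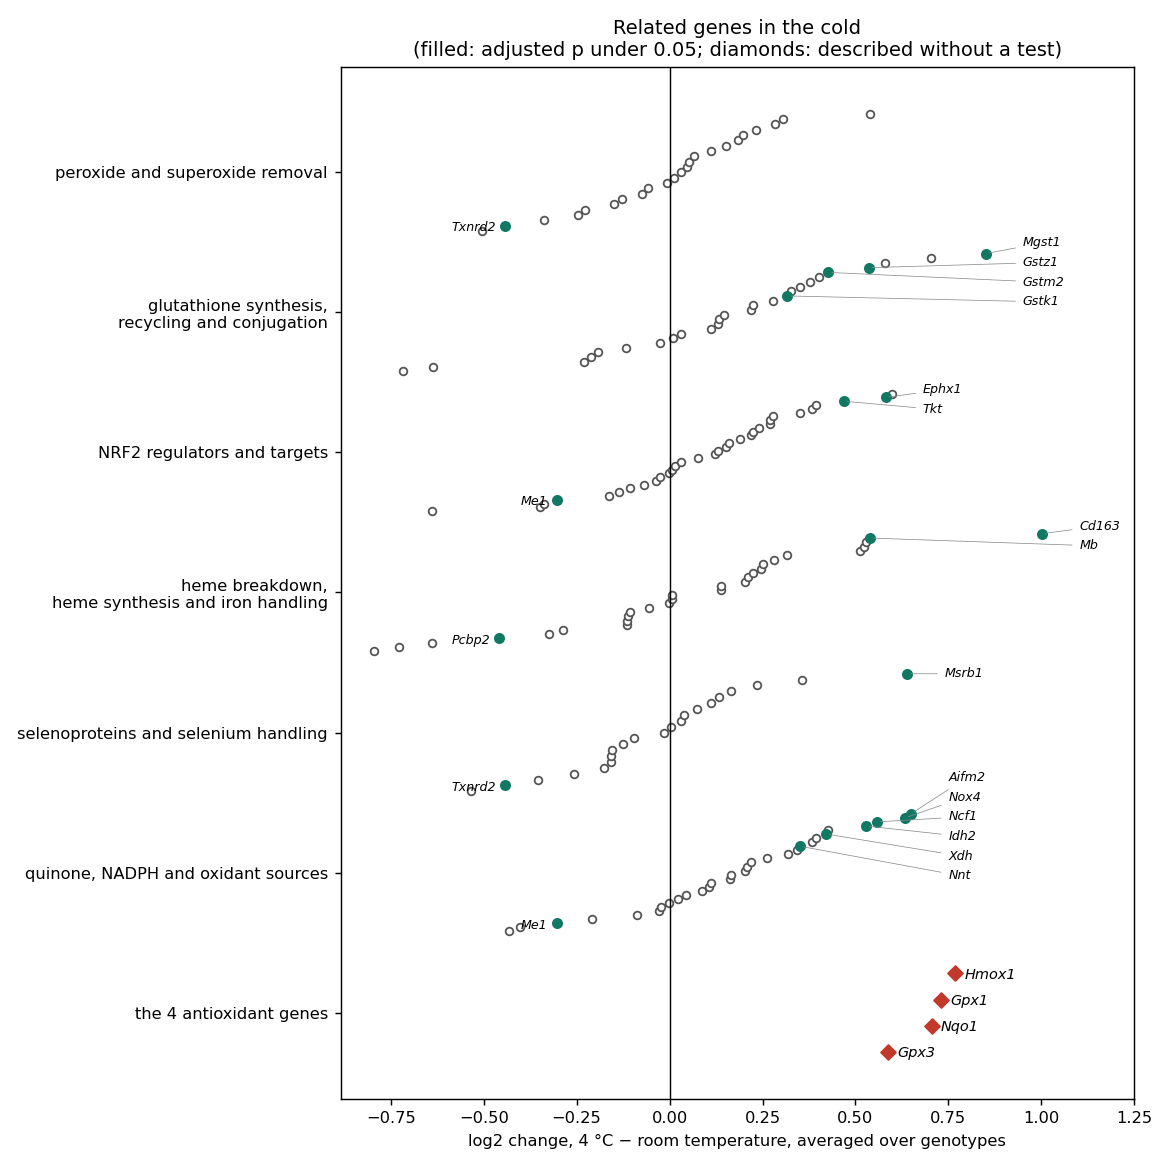
Log2 change with cold averaged over genotypes for each tested gene of the 6 lists (1 row of points per list, ordered by change, filled and named where the adjusted p is under 0.05), with the 4 antioxidant genes as diamonds in the lowest row. The diamonds lie between 0.59 and 0.77, and of the named genes 15 lie above 0 and 3 below it.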

How the data were processed

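Counts of reads per gene in 31 gastrocnemius libraries were made and deposited by the authors, and a second deposited table holds signal, the authors' counts divided by 1 size factor per library (relative difference at most 5.23e-10). The authors used build Rnor_6.0 and DESeq2 1.22.2, per the submitters' processing notes. Which aligner, counter and strand setting were used is not given in the sources used here. Both tables list 11289 genes, none with a total under 93 counts. No molecular identifiers are described, so counts may include PCR copies.

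Raw counts were analysed with edgeR 4.0.16 in R 4.3.3, with TMM scaling, filterByExpr (minimum count 10, minimum total 15), 1 mean per group and 27 residual degrees of freedom. Tests were two-sided. The p-values of edgeR set a difference between group means against the spread between rats of a group. Those of the permutations refer to relations within groups. The SE was taken as the size of the log2 change divided by the square root of F. Log2 levels used a prior count of 2. DESeq2 1.42.0 was an alternative. Permutation tests drew 100000 resamples.

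The members and lists were chosen with earlier results of these data known. Named genes are the members, up to 6 passing genes of each list and comparison by p, and the 3 genes most like each member. Relatives named as not passing were chosen after their values were seen. Of 248 list entries 201 matched. Scripts were tested on simulated data.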

Additional observations from a re-analysis of the deposited data

Results flagged for a closer look

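Within 48 combinations of a group with a member or marker list, 4 had a rat far from the rest by Dixon's criterion. Chance alone meets it in about 1 in 20 groups of independent, normally distributed values. These combinations are CPM levels and share rats, so that rate may not hold here. All 4 lie in cold knockout 31 and room temperature knockout 10. Hmox1 was 86.0 CPM in knockout rat 31 in the cold, with a gap to the next rat of 0.551 of the range of the group (critical value 0.526, n = 8). In the same rat the neutrophil genes S100a8 and S100a9 summed to 62.7 CPM (0.832 of the range). Nqo1 was 70.1 CPM in knockout rat 10 at room temperature, with a gap of 0.864 of the range (critical value 0.568, n = 7). The neutrophil sum of that rat was 10.9 CPM (0.789 of the range).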

How the results depend on the processing

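No paired analysis was possible because each animal number occurs once and the groups share none. The 880 log2 changes of the 4 genes under the alternatives each moved by less than 1 SD within groups, and 16 changed sign, all of them differences of the cold effects of Nqo1 or Gpx1, whose values lie near 0. DESeq2 size factors and no filter moved no count of calls by over 1.5 times.

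The number of all genes called was 139 with cold in knockouts, and 328 by DESeq2, 53 with the compared groups alone, 379 without room temperature controls 1 and 2 and 674 with a covariate for the first principal component. With cold in controls it was 86, and 220 by DESeq2, 38 without those controls and 379 with the component. For knockout in the cold it was 1, and 8 by DESeq2, 0 with the compared groups alone, 4 without those controls and 8 with the component. DESeq2 called 1 gene for knockout at room temperature and 1 for the difference of the cold effects, and the component gave 1274 with cold averaged over genotypes against 570.

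Of the listed genes, 9 were called with cold in knockouts by DESeq2, 10 without those controls and 18 with the component. With cold in controls 3 were called by DESeq2, 2 with the compared groups alone, 0 without those controls and 9 with the component, and the component gave 34 averaged over genotypes. Of the 4 genes, 0 were called with cold in knockouts with the compared groups alone. For knockout in the cold 1 (Hmox1) was called by DESeq2, without those controls and again with the component. Nqo1 gained a call with cold in controls by DESeq2, and with cold in both genotypes with the component.

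Leaving out 1 rat at a time gave 451 to 688 genes with cold averaged over genotypes, 56 to 231 in knockouts, 36 to 154 in controls, 0 to 3 for knockout in the cold, and 0 to 1 for knockout at room temperature and for the difference of the cold effects. For the listed genes it gave 14 to 22, 1 to 7 and 1 to 3 in the 3 cold comparisons in that order and 0 in the others. For the 4 genes it gave 4, 1 to 3 and 2 to 3 in the cold comparisons, 0 to 1 for knockout in the cold and 0 in the others. Gpx1 lost its call in knockouts without room temperature knockout 14, Nqo1 gained one in both genotypes without room temperature knockout 10, and Hmox1 gained one for knockout in the cold without cold knockout 28. Hmox1 had as few as 61 counts in a library, so its levels are the least precise of the 4. Where a count moved, the cause was not tested.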
